A study of Homo sapiens with 12 samples.

Results

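Aminoacyl-tRNA synthetases are the enzymes that join each amino acid to its transfer RNA, and 35 genes for them were followed here in human kidney cells exposed to Kbr. The genes were chosen by name. Those whose symbol ends in ARS1, with EPRS1, FARSA and FARSB, were taken as cytosolic (19 genes), and those whose symbol ends in ARS2 as mitochondrial (16 genes). A value was available for 32 of the 35, 17 cytosolic and 15 mitochondrial, out of 19775 named genes on the arrays. MARS1, QARS1 and TARS2 lay only on probe sets annotated with several symbols and are not analysed here. All 32 passed the filter on low values, which asked for more than 4 on the log2 scale on 3 or more of the 12 arrays, as did 10665 genes of the whole set.

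The study looked for expression signatures of kidney toxicity. HK-2, a line of immortalized cells from the proximal tubule of the human kidney, received a low dose of Kbr for 24 h, vehicle for 24 h, Kbr for 48 h or vehicle for 48 h. Each of these 4 groups held 3 arrays, labelled as biological replicates, and all cells shared a medium with EGF, hydrocortisone, insulin, transferrin and selenite. Neither the concentration nor the full name of Kbr is given in the sources used here, and HK-2 is a single immortalized line. Values are deposited log2 expression values, and a log2 change is the Kbr group minus the control group of the same time.

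In the cytosol, these enzymes supply charged transfer RNA to ribosomes that translate nuclear messages, and several of them are bound together in a multisynthetase complex. A separate set, encoded in the nucleus and imported, charges the transfer RNAs of mitochondria. When uncharged transfer RNA accumulates or the endoplasmic reticulum is stressed, phosphorylation of eIF2 favours translation of the transcription factor ATF4, which is known to raise genes of amino acid synthesis, amino acid uptake and several cytosolic synthetases. Kidney tubule cells are rich in mitochondria and depend on both sets.

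Array medians lay between 2.91 and 2.99, and each array had 40.0 to 40.4% of its probe sets above 4. The 3′ minus 5′ difference of the ACTB control probe sets, a sign of RNA quality, was 0.75 to 0.98 with Kbr and 0.67 to 0.99 in controls at 24 h. At 48 h it was 0.78 to 1.07 with Kbr and 0.70 to 1.04 in controls, so the ranges overlapped at both times. Within each replicate number at 48 h it was higher with Kbr (0.875, 1.07 and 0.779 in Kbr replicates 1, 2 and 3, against 0.709, 1.04 and 0.697 in controls). The same difference for GAPDH was lower with Kbr in each (-0.0702, -0.133 and -0.152 in Kbr arrays, against -0.0522, -0.0864 and -0.142 in controls). At 24 h the direction within replicate numbers varied for both. Of 12 tubule epithelial markers, PAX8, KRT8, KRT18, KRT19, EPCAM and CDH1 passed the filter, while the proximal markers LRP2, CUBN, ANPEP, GGT1, AQP1 and SLC34A1 did not, with group means of 2.09 to 3.71. None of 4 distal tubule, 4 endothelial and 3 leukocyte markers passed. Of 5 fibroblast markers COL1A1, DCN and LUM passed, and the mean of the list was 5.99 to 6.15 in Kbr arrays and 7.10 to 7.20 in control arrays at 48 h. The tubule list averaged 6.73 to 6.92 in Kbr arrays and 6.96 to 7.22 in control arrays at 48 h. At 24 h the fibroblast list averaged 6.77 to 7.12 in Kbr arrays and 7.28 to 7.55 in control arrays, and the tubule list 6.74 to 7.003 in Kbr arrays and 7.05 to 7.20 in control arrays. For both lists the groups did not overlap at either time. The part of these shifts in the results below was not tested.

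The first question was how cytosolic and mitochondrial synthetases differed from controls after 48 h. Of the 17 cytosolic genes, 9 rose and 0 fell, while 22% of all tested genes rose and 20.8% fell. Those that rose were GARS1, WARS1, YARS1, TARS1, FARSA, HARS1, NARS1, KARS1 and IARS1. Of the 15 mitochondrial genes 4 rose, MARS2, HARS2, NARS2 and EARS2, and 2 fell, VARS2 and WARS2. The mitochondrial share that rose, 4 of 15, was near the 22% of all tested genes. The test was limma across all tested genes with Benjamini-Hochberg adjustment and a threshold of 0.05. The median log2 change was 0.49 over cytosolic genes (range -0.32 to 1.11) and 0.16 over mitochondrial genes (range -0.78 to 1.48), against -0.00 over all tested genes. The change was positive in 16 of the 17 cytosolic genes and in 10 of the 15 mitochondrial ones.

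**Figure D1:**
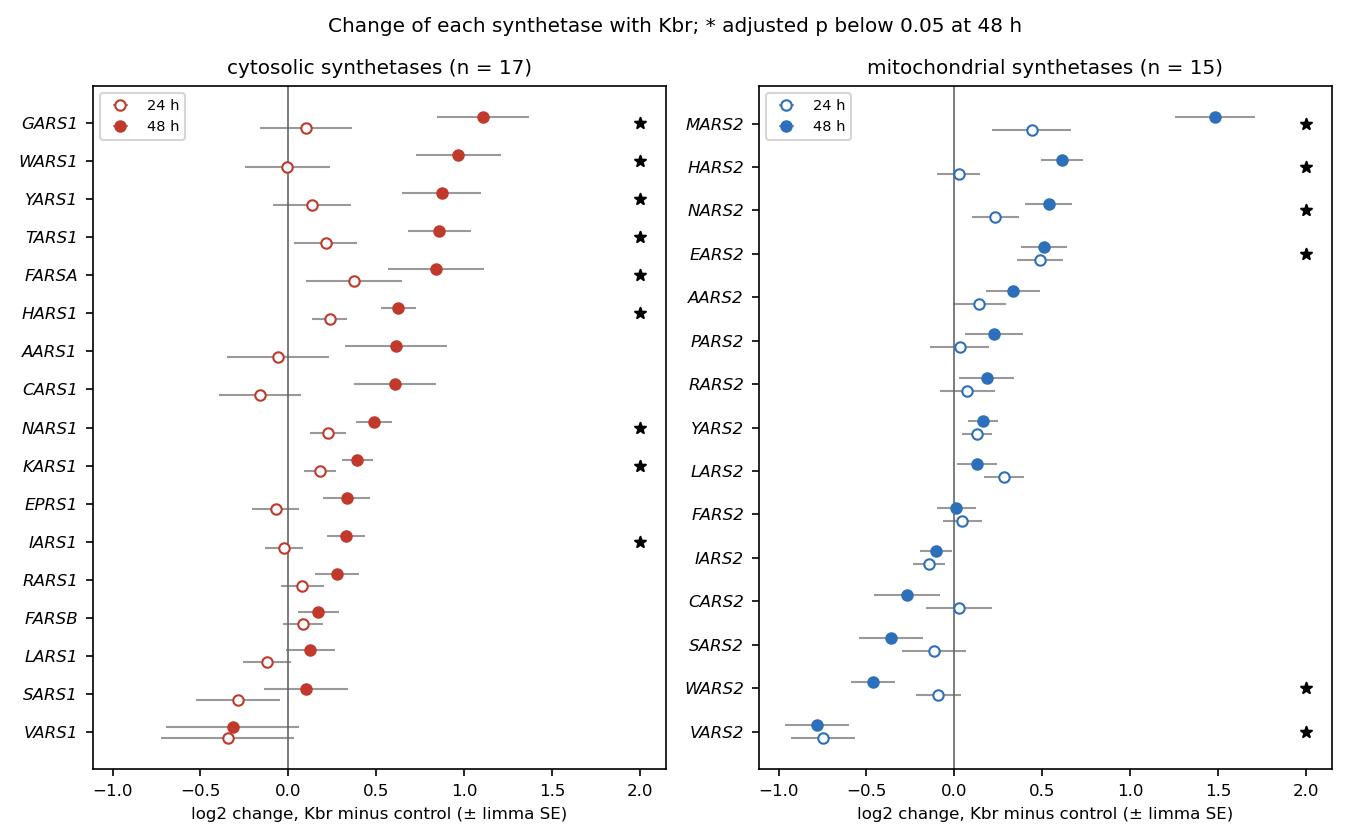
Log2 change with Kbr (x axis, Kbr minus control, bars show the limma standard error) of each of 17 cytosolic and 15 mitochondrial synthetases (y axis) at 24 h (open) and 48 h (filled); stars mark adjusted p below 0.05 at 48 h. At 48 h 16 of 17 cytosolic genes lie right of 0, with GARS1 at 1.11, while the mitochondrial genes spread from VARS2 at -0.78 to MARS2 at 1.48.

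GARS1 charges glycine and gives both the cytosolic and the mitochondrial enzyme. It stood at log2 values of 12.86, 12.23 and 11.60 in Kbr replicates 1, 2 and 3 at 48 h, against 11.42, 10.87 and 11.08 in control replicates 1, 2 and 3. Each Kbr array lay above every control array, with Kbr replicate 3 close to the highest control. GARS1 rose 2.15-fold (log2 change 1.11, SE 0.26, adjusted p = 0.00643), the largest cytosolic change.

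WARS1, the tryptophanyl enzyme, is also known as an interferon-induced gene. Its values at 48 h were 11.14, 10.55 and 10.05 in Kbr arrays and 9.55, 9.55 and 9.74 in control arrays. The groups did not overlap and the Kbr arrays spread over more than 1 log2 unit. WARS1 rose 1.96-fold (log2 change 0.97, SE 0.24, adjusted p = 0.00843).

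YARS1 charges tyrosine, and its fragments are known to act as secreted signals. It measured 11.73, 11.28 and 10.56 in Kbr arrays and 10.37, 10.39 and 10.19 in control arrays at 48 h. The same pattern appeared, with Kbr replicate 1 highest and Kbr replicate 3 nearest to the controls. YARS1 rose 1.83-fold (log2 change 0.87, SE 0.22, adjusted p = 0.0096). With only the 48 h groups in the fit its adjusted p was 0.053.

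TARS1, the threonyl enzyme, had 12.91, 12.43 and 12.35 in Kbr arrays and 11.94, 11.55 and 11.63 in control arrays at 48 h. All Kbr arrays lay above all controls. The rise was 1.81-fold (log2 change 0.86, SE 0.18, adjusted p = 0.00318).

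FARSA is the catalytic subunit of phenylalanyl-tRNA synthetase. It measured 10.27, 9.47 and 9.72 in Kbr arrays and 9.21, 8.50 and 9.21 in control arrays at 48 h. Replicate 2 was the lowest array of both groups, and the groups did not overlap. FARSA rose 1.79-fold (log2 change 0.84, SE 0.27, adjusted p = 0.0286). Its adjusted p was 0.106 without Kbr 48 h replicate 1, 0.108 without control 48 h replicate 2, 0.0791 without the filter and 0.055 with only the 48 h groups fitted. FARSB, its partner subunit, had a log2 change of 0.17 (adjusted p = 0.259).

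HARS1, the histidyl enzyme, had the smallest SD over the Kbr 48 h arrays among the cytosolic genes, 0.04. Its values at 48 h were 10.51, 10.44 and 10.51 in Kbr arrays and 9.76, 9.87 and 9.96 in control arrays. The rise was 1.54-fold (log2 change 0.63, SE 0.10, adjusted p = 0.000704). HARS1 fell with time in control cells, by 0.51 on the log2 scale (adjusted p = 0.0281). Its values in Kbr cells were 10.49 ± 0.04 at 48 h and 10.61 ± 0.10 at 24 h (SD, n = 3). There too every 48 h array lay below every 24 h array, as in 15.5% of all tested genes, but the change of -0.12 did not pass (adjusted p = 0.446). The call of the control fall was lost in 4 fits that left out 1 array, control 24 h replicate 1 or 3 and control 48 h replicate 1 or 2, and with only the control groups fitted.

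KARS1 charges lysine in both compartments, through alternative splicing. It had 13.50, 13.55 and 13.45 in Kbr arrays and 12.94, 13.18 and 13.20 in control arrays at 48 h. The groups did not overlap, and the rise was 1.31-fold (log2 change 0.39, SE 0.09, adjusted p = 0.00537). NARS1, the asparaginyl enzyme, rose 1.40-fold (adjusted p = 0.00316). IARS1, the isoleucyl enzyme, rose 1.25-fold (adjusted p = 0.0309). The IARS1 call was lost in 4 of the fits without 1 array (adjusted p = 0.109 without Kbr 48 h replicate 1, 0.0915 without Kbr 48 h replicate 2, 0.0632 without control 48 h replicate 1 and 0.0892 without control 48 h replicate 3). It was also lost with quantile normalization repeated (0.0592) and with only the 48 h groups fitted (0.0956).

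The cytosolic genes that did not pass at 48 h were AARS1 (log2 change 0.61, adjusted p = 0.114), CARS1 (0.61, 0.0563), EPRS1 (0.33, 0.0654), RARS1 (0.28, 0.0914), FARSB, LARS1, SARS1 and VARS1. With the replicate number as a block CARS1 (adjusted p = 0.049), EPRS1 (0.0361) and RARS1 (0.0189) passed as higher and VARS1 (0.0161) as lower, so 12 rose and 1 fell, against 28.7% higher and 28.8% lower of all tested genes. CARS1 charges cysteine, EPRS1 glutamate and proline in 1 protein, and RARS1 arginine. Each tested by itself, 2 further probe sets of CARS1 gave log2 changes of 0.66 (adjusted p = 0.0443) and of 1.22 (adjusted p = 0.0132).

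SARS1, the seryl enzyme, and LARS1, the leucyl enzyme, had the smallest cytosolic changes. SARS1 stood at 12.19, 11.62 and 11.02 in Kbr arrays and 11.83, 11.35 and 11.33 in control arrays at 48 h, so the groups overlapped (log2 change 0.10, adjusted p = 0.76). A second SARS1 probe set gave a log2 change of 1.29 (adjusted p = 0.015), so the probe sets of this gene differed in their call. LARS1 measured 11.55, 11.21 and 10.98 in Kbr arrays and 11.10, 11.15 and 11.10 in control arrays (log2 change 0.13, adjusted p = 0.488). Its 4 probe sets differed in sign. Without Kbr 48 h replicate 1 the change was -0.19 for SARS1 and -0.03 for LARS1.

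VARS1, the valyl enzyme, was the cytosolic gene with a negative change. It had 8.62, 7.58 and 8.27 in Kbr arrays and 8.71, 7.86 and 8.85 in control arrays at 48 h. Replicate 2 was lowest in both groups, and within each replicate number the Kbr array lay below the control array, by 0.09, 0.28 and 0.58. The log2 change was -0.32 (SE 0.38, adjusted p = 0.53).

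**Figure D2:**
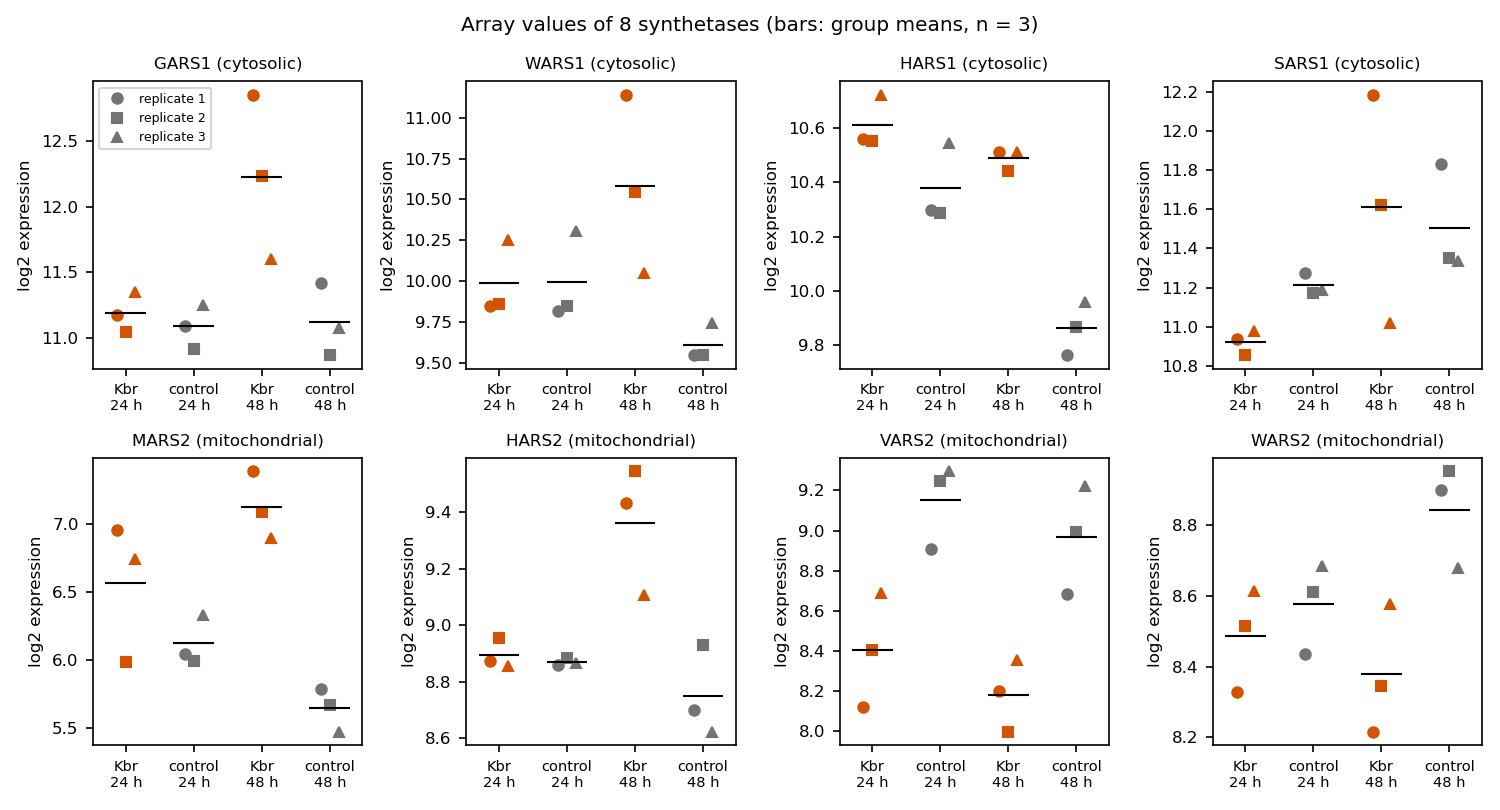
Log2 expression (y axis) on each array for 8 synthetases, with Kbr left of control at 24 h and then at 48 h (x axis); point shapes mark the replicate number, bars are means of 3 arrays, and each panel has its own scale. GARS1, WARS1, HARS1, MARS2 and HARS2 have all Kbr arrays above all controls at 48 h, SARS1 does not, and VARS2 has all Kbr arrays below all controls at both times.

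MARS2, the mitochondrial methionyl enzyme, showed the largest change of all 32 genes at 48 h. It had 7.39, 7.09 and 6.90 in Kbr arrays and 5.79, 5.67 and 5.47 in control arrays. The gap between the groups exceeded the spread within either. MARS2 rose 2.80-fold (log2 change 1.48, SE 0.23, adjusted p = 0.000593).

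HARS2, the mitochondrial histidyl enzyme, had 9.43, 9.55 and 9.11 in Kbr arrays and 8.70, 8.93 and 8.62 in control arrays at 48 h. The groups did not overlap, and HARS2 rose 1.53-fold (log2 change 0.61, SE 0.12, adjusted p = 0.00239). NARS2, for asparagine, rose 1.45-fold (log2 change 0.54, adjusted p = 0.00834). EARS2 charges both the glutamate and the glutamine transfer RNA of mitochondria, and it rose 1.43-fold (log2 change 0.51, adjusted p = 0.00964), with all 3 tested probe sets called.

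VARS2, the mitochondrial valyl enzyme, had 8.199, 7.997 and 8.353 in Kbr arrays and 8.68, 8.99 and 9.22 in control arrays at 48 h. Every Kbr array was below every control array, and VARS2 fell by 0.78 on the log2 scale (SE 0.18, adjusted p = 0.00571). WARS2, for tryptophan, had 8.22, 8.35 and 8.58 in Kbr arrays and 8.90, 8.95 and 8.68 in control arrays. It fell by 0.46 on the log2 scale (SE 0.13, adjusted p = 0.013), with Kbr replicate 3 close to the lowest control. A second WARS2 probe set had a log2 change of -0.10 (adjusted p = 0.671), and the mean of its probe sets -0.18 (adjusted p = 0.127).

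FARS2, for phenylalanine, and IARS2, for isoleucine, had the smallest mitochondrial changes. FARS2 measured 7.94, 8.14 and 8.11 in Kbr arrays and 7.84, 8.11 and 8.20 in control arrays (log2 change 0.01, adjusted p = 0.947). IARS2 measured 12.40, 12.53 and 12.45 in Kbr arrays and 12.42, 12.66 and 12.61 in control arrays (log2 change -0.10, adjusted p = 0.388). In both genes the arrays overlapped. The remaining mitochondrial genes, AARS2, CARS2, LARS2, PARS2, RARS2, SARS2 and YARS2, lay between -0.36 and 0.33, and none passed. With the replicate block AARS2 (adjusted p = 0.0183) passed as higher and SARS2 (0.0112) as lower, which gave 5 rises and 3 falls in 15 genes, against 28.7% higher and 28.8% lower of all tested genes.

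Kbr and control arrays at 48 h did not overlap, with Kbr higher, in 9 of 17 cytosolic and 6 of 15 mitochondrial genes, against 26% of all tested genes. They did not overlap with Kbr lower in 0 cytosolic and 2 mitochondrial genes, against 24.9%. By structural class, 3 of 7 class I and 6 of 9 class II cytosolic enzymes rose, leaving out EPRS1, which holds a domain of each class. Among members of the multisynthetase complex 2 of 5 rose (median log2 change 0.33), and 7 of 12 outside it (median 0.62). Of all tested genes 22% rose. The differences between these subgroups were not tested.

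The 3 Kbr arrays at 48 h were uneven for the cytosolic genes. Set against the mean of the 48 h controls, their median log2 difference was 0.65 in replicate 1, 0.49 in replicate 2 and 0.25 in replicate 3. The mitochondrial medians were -0.09, 0.19 and 0.24. Taken within a replicate number, Kbr minus control at 48 h had a cytosolic median of 0.62, 0.51 and 0.18 and a mitochondrial median of 0.09, 0.08 and 0.19 in replicates 1, 2 and 3. In replicate 3 the cytosolic median was therefore not above the mitochondrial one. Replicate 1 was highest in 13 of 17 genes and replicate 3 lowest in 13 of 17. The full ranking 1, 2, 3 held in 11 of 17 cytosolic genes and in 1 of 15 mitochondrial genes, against 22.6% of all tested genes. The gap from replicate 1 to replicate 3 ran from -0.06 in RARS1 to 1.54 in AARS1. AARS1, for alanine, had 11.30, 10.52 and 9.76 in Kbr arrays and 10.20, 9.71 and 9.83 in control arrays, so Kbr replicate 3 lay within the controls. HARS1, KARS1 and RARS1 differed by less than 0.1 between replicates 1 and 3. The median SD within the Kbr 48 h group was 0.30 over cytosolic genes and 0.18 over mitochondrial genes, against 0.18 over all tested genes.

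Without Kbr 48 h replicate 3, 12 of 17 cytosolic genes rose at 48 h, against 21.6% of all tested genes. The additions were AARS1 (log2 change 0.99, adjusted p = 0.00414), CARS1 (0.90, 0.00292) and EPRS1 (0.50, 0.00288). Without Kbr 48 h replicate 1 the count was 7. The mitochondrial count, rises and falls together, was 6 of 15 in every fit that left out 1 array. That is near the 42.8% of all tested genes called in either direction at 48 h with all 12 arrays.

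**Figure D3:**
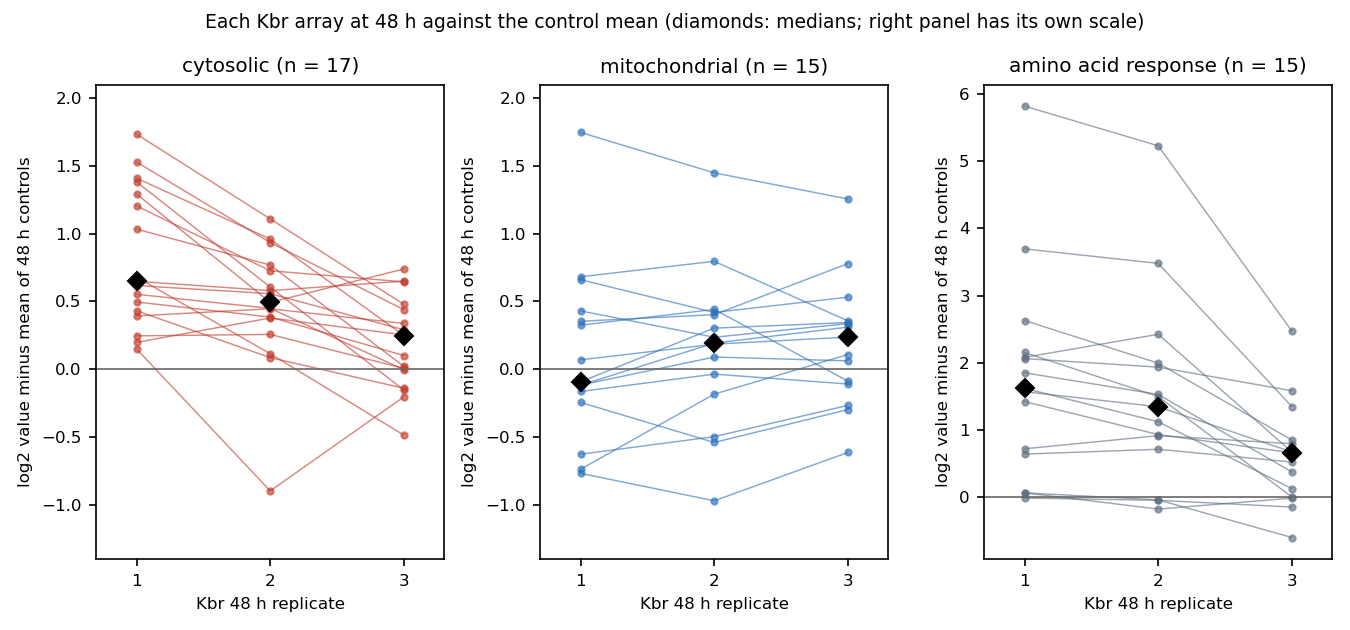
Log2 value of each Kbr 48 h array minus the mean of the 48 h controls (y axis) by replicate number (x axis) for cytosolic synthetases, mitochondrial synthetases and amino acid response genes; lines join the values of a gene and diamonds are medians. The cytosolic medians are 0.65, 0.49 and 0.25, and the right panel has its own scale.

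The genes of the amino acid response were set beside the synthetases on the same arrays. Of 14 tested genes 11 rose at 48 h and 0 fell, against 22% of all tested genes that rose and 20.8% that fell. ATF4, the transcription factor of this response, rose 1.54-fold (adjusted p = 0.000804), and EIF2S1, the eIF2 alpha subunit, had a log2 change of 0.81 (adjusted p = 0.000468). ATF3 stood at 11.84, 11.25 and 8.49 in Kbr arrays and 7.08, 5.45 and 5.53 in control arrays (log2 change 4.51, adjusted p = 0.00122). DDIT3 had 13.34, 13.12 and 10.99 in Kbr arrays and 10.91, 9.05 and 8.96 in control arrays (log2 change 2.84, adjusted p = 0.00362). Kbr replicate 3 was again the lowest Kbr array, and control replicate 1 the highest control. ASNS, which makes asparagine, rose as well (log2 change 1.22, adjusted p = 0.0431). CEBPB, CEBPG, TRIB3, CHAC1, SESN2 and PPP1R15A also rose. Kbr and control arrays at 48 h did not overlap, with Kbr higher, in 7 of the 14 tested genes, against 26% of all tested genes. The sensor kinase EIF2AK4, its partner GCN1 and IMPACT did not pass, and NUPR1 was below the filter. In this list 11 of 15 genes with a value had the ranking 1, 2, 3 of the Kbr arrays. At 24 h ATF4 rose (log2 change 0.40, adjusted p = 0.0472), where 2.48% of all tested genes rose. The other 13 tested genes did not pass. EIF2S1 passed as higher at 24 h with the replicate block (0.29, adjusted p = 0.0211), where 10.4% of all tested genes were higher. The part of this response in the synthetase changes was not tested.

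Promoter windows from RefSeq, build GRCh38.p14, reaching 250 bases before to 50 bases after the start, matched 30 of the 35 genes. They are shown because 9 of 17 cytosolic genes rose at 48 h. LARS1, VARS1, YARS1, AARS2 and VARS2 had no entry. The core of the C/EBP-ATF response element, TGATGNAA on either strand, lay in 6 of 16 cytosolic windows (37.5%) and in 1 of 14 mitochondrial windows, against 3.67% of 27305 windows. In the 6 cytosolic windows the letters were TGATGCAA, a spelling examined after these matches were seen, which 0.923% of all windows held. Each match is shown with 8 bases on either side, in capitals, read along the gene's strand; TTGCATCA is the same element on the opposite strand.
AARS1 chr16:70289678-70289701 (-): tctcgcagTTGCATCAgccaagtt
CARS1 chr11:3057410-3057433 (-): ggcggcggTTGCATCAgattctag
IARS1 chr9:92293695-92293718 (-): tcagcgcgTTGCATCAcctccgtg
MARS1 chr12:57488056-57488079 (+): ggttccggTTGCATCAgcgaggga
NARS1 chr18:57621807-57621830 (-): acgctctcTGATGCAAcgccggaa
TARS1 chr5:33440959-33440982 (+): cctttcgaTTGCATCAgctggtcc
YARS2 chr12:32756079-32756102 (-): cacactgcTGATGGAAaaattaag

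Counted from the start, with the base before it as -1, the match began at -187 in AARS1, -13 in IARS1, -4 in MARS1, -2 in CARS1, 3 in TARS1 and 15 in NARS1. In YARS2 it began at -197. A match describes the letters of the window, and whether it is a site or a cause was not tested. Of the 5 cytosolic genes with a match and a value, 3 rose at 48 h (IARS1, NARS1 and TARS1), against 22% of all tested genes. The IARS1 call was lost in 4 fits without 1 array. These 5 genes had a median log2 change of 0.61 and a range of 0.33 to 0.86. Of the 9 cytosolic genes with a window and no match 5 rose, with a median of 0.39 and a range of 0.10 to 1.11, so the ranges overlapped. GARS1, with the largest cytosolic change, had no match in its window.

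The whole TARS1 window, on which the element lies just after the start, reads as follows, with the element in capitals.
TARS1 chr5:33440715-33441014 (+): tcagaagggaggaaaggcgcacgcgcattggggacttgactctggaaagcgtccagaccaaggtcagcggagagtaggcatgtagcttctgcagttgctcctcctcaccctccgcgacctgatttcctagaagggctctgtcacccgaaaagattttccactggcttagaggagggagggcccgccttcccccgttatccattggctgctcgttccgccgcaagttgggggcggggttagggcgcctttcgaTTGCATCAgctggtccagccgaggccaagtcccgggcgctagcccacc

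The antioxidant response element core, TGACNNNGC on either strand, lay in the windows of KARS1, TARS1 and WARS1 (3 of 16 cytosolic) and of NARS2 and RARS2 (2 of 14 mitochondrial), against 13.6% of all windows. The E-box CACGTG lay in IARS1 (1 of 16 cytosolic) and in CARS2, EARS2 and MARS2 (3 of 14 mitochondrial), against 7.43%. In 0 windows of these genes did matches of different motifs overlap.

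**Figure D4:**
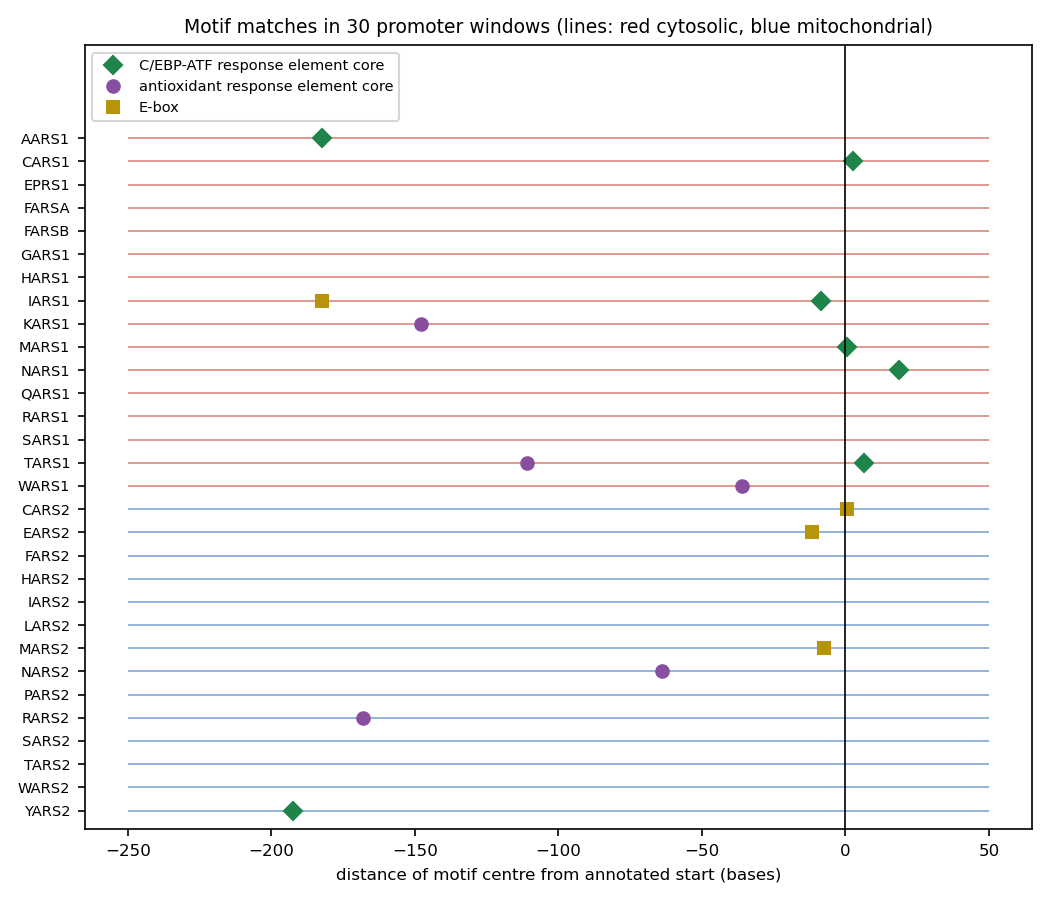
Position of each motif match (x axis, bases from the start) in the promoter window of each synthetase that has one (y axis). The C/EBP-ATF core falls in 6 of 16 cytosolic windows and in 1 of 14 mitochondrial windows.

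HARS1 and HARS2 lie head to head on chromosome 5, on opposite strands, and their promoter windows share 184 of 300 bases. Both rose at 48 h, with log2 changes of 0.63 for HARS1 and 0.61 for HARS2. The HARS1 window is shown with the shared bases in capitals.
HARS1 chr5:140691321-140691620 (-): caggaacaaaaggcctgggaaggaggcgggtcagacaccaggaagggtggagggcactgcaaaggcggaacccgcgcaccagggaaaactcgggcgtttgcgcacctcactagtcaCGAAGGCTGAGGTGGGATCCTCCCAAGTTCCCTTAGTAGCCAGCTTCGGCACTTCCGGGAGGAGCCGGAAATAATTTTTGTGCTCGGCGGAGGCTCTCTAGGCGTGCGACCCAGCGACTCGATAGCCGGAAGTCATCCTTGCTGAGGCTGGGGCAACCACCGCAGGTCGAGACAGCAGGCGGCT

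The pair was also compared at 24 h and over time. At 24 h HARS1 had 10.56, 10.55 and 10.72 in Kbr arrays and 10.30, 10.29 and 10.55 in control arrays, and HARS2 had 8.87, 8.96 and 8.86 in Kbr arrays and 8.86, 8.89 and 8.87 in control arrays. HARS1 arrays did not overlap, while those of HARS2 did. From 24 to 48 h in Kbr cells, HARS2 rose 1.38-fold (log2 change 0.47, adjusted p = 0.0349), against a log2 change of -0.12 for HARS1 (adjusted p = 0.446). The difference between the genes was not tested.

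Amino acids whose cytosolic and mitochondrial enzymes were both measured gave 13 pairs for 12 amino acids, phenylalanine counting with FARSA and with FARSB. At 24 h the cytosolic log2 change was the greater in 8 of 13 pairs, with a median difference of 0.01. At 48 h it was the greater in 11 of 13, with a median difference of 0.43. The widest gap was for tryptophan, 0.97 for WARS1 and -0.46 for WARS2. Cysteine followed, with 0.61 for CARS1 and -0.27 for CARS2, then phenylalanine, with 0.84 for FARSA and 0.01 for FARS2. For valine both were negative, -0.32 for VARS1 and -0.78 for VARS2. The exceptions were asparagine, with 0.49 for NARS1 and 0.54 for NARS2, and leucine, with 0.13 for both LARS1 and LARS2. For histidine the cytosolic change was the greater by only 0.01. Within replicate number 3 at 48 h, the mitochondrial change was the greater for alanine, arginine, asparagine, cysteine and leucine. Over all genes of each set, the cytosolic median exceeded the mitochondrial one by 0.04 at 24 h and by 0.32 at 48 h, and the second value lay between 0.18 and 0.48 when 1 array was left out. On single Kbr arrays at 48 h the cytosolic minus mitochondrial median, each gene taken as its deviation from its mean over the 12 arrays, was 0.57, 0.26 and -0.08. Its SD was 0.33 in that group, against 0.03 in Kbr arrays at 24 h, 0.08 in control arrays at 48 h and 0.09 in control arrays at 24 h. The gap of 0.32 at 48 h stood beside an SD of 0.33 in single Kbr arrays and 0.17 pooled over the 4 groups. An SD of single arrays is not the error of a gap built on group means. No test was made of this difference, since the genes are not replicates.

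**Figure D5:**
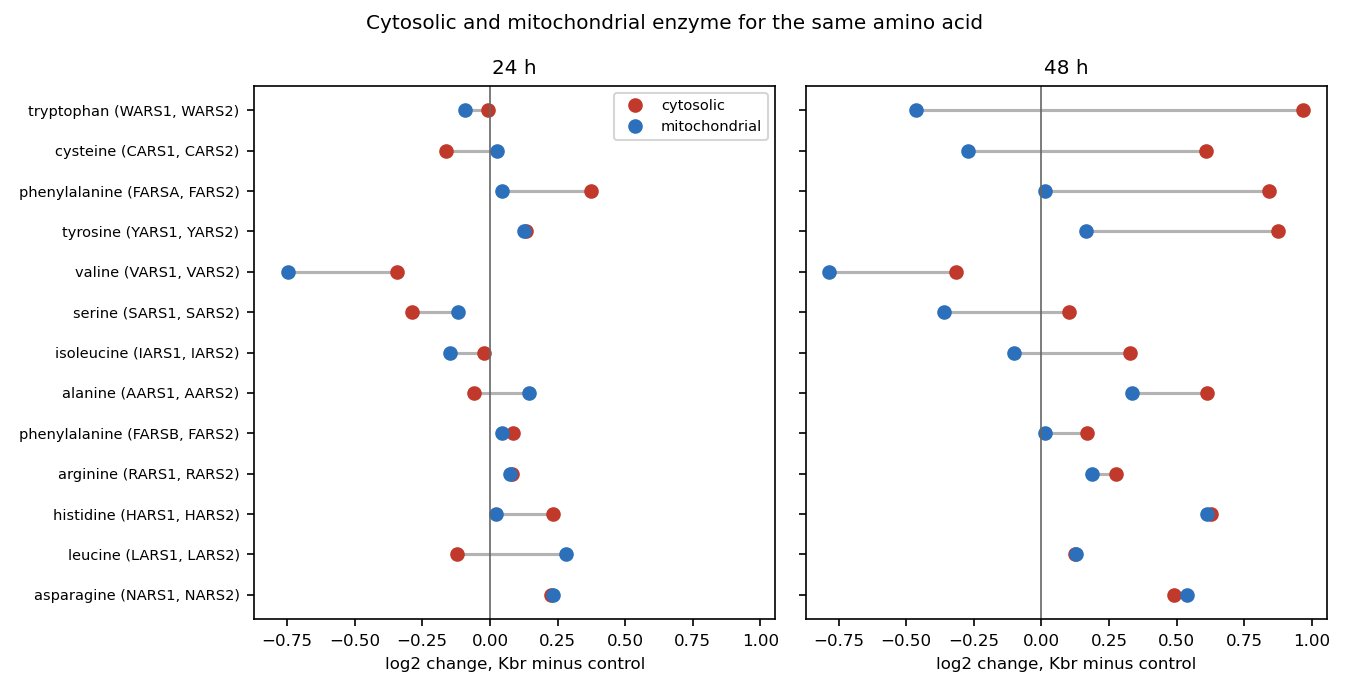
Log2 change with Kbr (x axis, Kbr minus control) of the cytosolic and the mitochondrial enzyme for the same amino acid (y axis, 13 pairs), at 24 h and at 48 h. At 48 h the cytosolic point lies further right in 11 of 13 pairs, most for tryptophan.

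After 24 h of Kbr, limma called 0 of the 17 cytosolic genes, and 2 had an unadjusted p under 0.05. Of all tested genes 5.74% were called, 2.48% higher and 3.25% lower, and 23.7% had an unadjusted p under 0.05. The cytosolic log2 changes ran from -0.34 to 0.37 with a median of 0.08, and 9 of 17 were positive. With the replicate block HARS1 passed as higher (0.23, adjusted p = 0.0382) and VARS1 as lower (-0.34, adjusted p = 0.0267), where 10.4% of all tested genes were higher and 14% lower.

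For GARS1 and WARS1, the cytosolic genes with the largest 48 h changes, Kbr and control arrays lay close together at 24 h. GARS1 had 11.18, 11.05 and 11.35 in Kbr arrays and 11.09, 10.92 and 11.26 in control arrays. WARS1 had 9.85, 9.86 and 10.25 in Kbr arrays and 9.82, 9.85 and 10.31 in control arrays. Within each replicate number these pairs differed by at most 0.13. Other genes that rose at 48 h lay further apart at 24 h, with Kbr minus control of 0.36, 0.35 and 0.40 for FARSA in replicates 1, 2 and 3. TARS1 had 12.01, 11.93 and 12.31 in Kbr arrays and 11.85, 11.66 and 12.10 in control arrays, and KARS1 had 13.52, 13.45 and 13.45 in Kbr arrays and 13.23, 13.31 and 13.34 in control arrays. KARS1 and NARS1 had all Kbr arrays above all controls at 24 h, as HARS1 did, and SARS1 had all below. That makes 3 of 17 higher and 1 of 17 lower, against 15.9% of all tested genes in each direction.

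Of the 15 mitochondrial genes VARS2 fell at 24 h and none rose. It had 8.12, 8.40 and 8.69 in Kbr arrays and 8.91, 9.25 and 9.30 in control arrays, with no overlap. VARS2 fell by 0.75 on the log2 scale (SE 0.18, adjusted p = 0.0399), against 0.78 at 48 h. Its call was lost in 8 of 12 fits without 1 array, among them every fit without a 24 h array and those without Kbr or control 48 h replicate 2, with adjusted p up to 0.119. It was also lost with no filter (0.0815) and with only the 24 h groups fitted (0.0659). EARS2 had 7.88, 7.88 and 8.10 in Kbr arrays and 7.46, 7.35 and 7.60 in control arrays, again with no overlap (log2 change 0.49, adjusted p = 0.0538, and 0.00761 with the replicate block). MARS2 had 6.96, 5.99 and 6.74 in Kbr arrays and 6.05, 5.99 and 6.33 in control arrays, so its groups overlapped at 24 h (log2 change 0.44, adjusted p = 0.264). EARS2 and LARS2 had all Kbr arrays above all controls, and VARS2 and IARS2 all below, against 15.9% of all tested genes in each direction. Of the 15 log2 changes 11 were positive, with a median of 0.04. By limma 3 of the 15 genes had an unadjusted p under 0.05, against 23.7% of all tested genes.

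The next question was whether the effect of Kbr itself changed between the times. The 48 h effect exceeded the 24 h effect in all 17 cytosolic genes, with a median difference of 0.39, against 0.04 over the mitochondrial genes and 0.01 over all tested genes. The largest differences were 1.01 in GARS1, 0.97 in WARS1 and 1.04 in MARS2. Limma called 0 of the 32 genes for this difference, and 9 had an unadjusted p under 0.05. Of all tested genes 0.141% were called and 16.1% had an unadjusted p under 0.05. With the replicate block HARS1 (adjusted p = 0.046) and HARS2 (0.033) passed, against 7.36% of all tested genes. Without Kbr 48 h replicate 3, 6 genes passed, CARS1, EPRS1, GARS1, WARS1, YARS1 and HARS2, all with the greater effect at 48 h. Their adjusted p was 0.0171 to 0.0420, and 2.95% of all tested genes passed in that direction. In the same fit the difference was -0.03 in VARS1, so it was not positive in every cytosolic gene. Within replicate number 3, Kbr minus control was lower at 48 h than at 24 h in FARSB, LARS1, SARS1 and VARS1.

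Within Kbr cells, GARS1, CARS1, YARS1, NARS1 and HARS2 were higher at 48 h than at 24 h, which makes 4 of 17 cytosolic and 1 of 15 mitochondrial genes, against 5.6% of all tested genes. The log2 change was 1.04 for GARS1 (adjusted p = 0.0325), 0.87 for CARS1 (0.0393), 0.79 for YARS1 (0.0479) and 0.35 for NARS1 (0.0492). With the replicate block AARS1 (adjusted p = 0.0327), EPRS1 (0.0251), SARS1 (0.028) and TARS1 (0.0413) passed as higher too and VARS1 (0.00434) as lower. That made 8 of 17 cytosolic and 1 of 15 mitochondrial genes higher, against 14.2% of all tested genes, and 1 cytosolic gene lower, against 16.4%. Within control cells HARS1 was the gene that passed, lower at 48 h, against 1.88% of all tested genes. With the replicate block VARS1 was lower as well, against 13.3%. Control arrays did not overlap between the times in 1 gene with 48 h higher, SARS1, against 11.9% of all tested genes. They did not overlap with 48 h lower in 6 of the 32 genes, HARS1, KARS1, WARS1, AARS2, FARS2 and MARS2, against 14.5%. These comparisons share arrays with those between Kbr and control.

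Other parts of the charging machinery came from lists that did not include the synthetases above. AIMP1, a scaffold of the multisynthetase complex, had 11.21, 11.38 and 11.25 in Kbr arrays and 10.62, 10.78 and 10.74 in control arrays at 48 h. The groups did not overlap, and AIMP1 rose (log2 change 0.57, adjusted p = 0.00194). Of 10 tested charging enzymes and helpers 5 rose and 0 fell at 48 h, against 22% of all tested genes that rose and 20.8% that fell. PSTK and SEPSECS, which act in turn to turn seryl-tRNA into selenocysteinyl-tRNA, rose by 1.01 (adjusted p = 0.000123) and 1.30 (adjusted p = 0.000194). PSTK also rose at 24 h, by 0.76 (adjusted p = 0.00677). TRNT1, which adds the CCA end to transfer RNAs, had 10.20, 9.77 and 9.59 in Kbr arrays and 8.65, 8.82 and 8.69 in control arrays at 48 h, a log2 change of 1.13 (adjusted p = 0.000246). MTFMT, which formylates the mitochondrial initiator, and DTD2, which removes wrongly attached amino acids, rose by 0.36 (adjusted p = 0.041) and 0.52 (adjusted p = 0.034). At 24 h AIMP1 (log2 change 0.30, adjusted p = 0.00975), TRNT1 (0.54, 0.0182) and MTFMT (0.38, 0.0446) passed as higher with the replicate block only, where 10.4% of all tested genes were higher.

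The amidotransferase subunits QRSL1, GATB and GATC, which complete the glutamine transfer RNA after EARS2, did not pass (log2 changes -0.12, -0.10 and 0.23). Of 6 tested elongation factors the mitochondrial factor TSFM rose (log2 change 0.32, adjusted p = 0.0254) and 0 fell, against 22% and 20.8% of all tested genes. The mitochondrial factors TUFM (log2 change 0.28, adjusted p = 0.00948) and GFM1 (0.34, 0.00472) passed as higher with the replicate block, where 28.7% of all tested genes were higher. EEF1A1 and EEF2, the main cytosolic factors, had log2 changes of 0.02 and -0.11, neither past the test.

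For 15 of the 32 synthetases more than 1 probe set passed the filter, and at 48 h their log2 changes differed in sign in LARS1, FARS2 and RARS2. In 0 genes was 1 probe set called higher and another lower.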

How the data were processed

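The deposited values are log2 expression of 54675 probe sets in each of 12 arrays. They were computed by GCRMA, per the submitters' processing notes, with settings not given in the sources used here. GCRMA models background from probe sequence and normalizes by quantiles, so weak probe sets sit near a floor and their changes are compressed. Only the 41091 probe sets annotated with 1 symbol were used, leaving out 1801 with several and 11721 without any. A gene was represented by its probe set of highest mean. Genes above a log2 value of 4 in at least 3 of 12 arrays were tested. Limma 3.58.1 in R 4.3.3 fitted 4 group means to all arrays, and two-sided p values were adjusted by Benjamini-Hochberg over 10665 genes (threshold 0.05). For single values, 3 against 3 arrays allow no exact p below 0.1. The fit was run on simulated data with independent noise on each array. Those data lack the shared deviations of replicate numbers given below, so the run does not check the fit for them. The number of arrays limits the precision.

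The members, lists and motifs were chosen with earlier results of these data known. Values on every array are given by a rule: the 5 cytosolic and 3 mitochondrial genes with the largest changes at 48 h, the 2 smallest of each, those that fell, and GARS1, KARS1, WARS1, HARS1 and HARS2; other genes shown this way were added after their values were seen. Same replicate numbers deviated together (r of 0.28 to 0.70 over 18 pairs). Each of 12 arrays correlated best with an array of its own number. The replicate block is therefore given where it changes the call of a synthetase. For listed genes of charging, elongation or the amino acid response it is given for Kbr against control only. Between the times the block changed calls of listed genes too, such as SEPSECS, PSTK, QRSL1 and TRNT1, and these are not given. Alternatives were the block, no filter, a floor of 6, repeated quantile normalization, the array median subtracted, the mean of probe sets or each by itself, only the groups compared, a variance trend, and each array left out.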

Additional observations from a re-analysis of the deposited data

How the results depend on the processing

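With the replicate number as a block, 2 cytosolic and 2 mitochondrial genes passed at 24 h, 2 genes passed for the change of the Kbr effect between times, and 2 for control cells with time. The cytosolic count at 48 h, 9, was 6 with only the groups compared, 8 with no filter and with repeated quantile normalization, 10 with a floor of 6 and with the mean of probe sets, 11 with a variance trend, and 12 higher and 1 lower with the block. The mitochondrial count at 24 h was 0 with no filter and with only the groups compared, and 2 with a floor of 6 and with repeated quantile normalization. The control count with time was 0 with only the groups compared. Leaving out 1 array gave 0 to 2 mitochondrial genes at 24 h, 0 cytosolic genes at 24 h, 7 to 12 cytosolic and 6 mitochondrial genes at 48 h, 0 to 6 for the change of the effect and 0 to 1 for control cells. The cytosolic minus mitochondrial median then lay between -0.06 and 0.07 at 24 h and between 0.18 and 0.48 at 48 h. Over all tested genes the block gave 2602 calls at 24 h against 612, 785 for the change of the effect against 15, 2404 for control cells against 351 and 3273 for Kbr cells with time against 1135. The change of the effect gave 32 calls with no filter, 9 with a floor of 6, 8 with the array median subtracted and 3 with the mean of probe sets. Control cells with time gave 185 with no filter and 9 with only their groups, and Kbr cells with time gave 726 and 224. Leaving out 1 array moved these counts to 81 to 767 at 24 h and 0 to 479 for the change of the effect. It moved them to 21 to 558 for control cells and 288 to 2206 for Kbr cells. At 48 h 4564 of 10665 tested genes were called (42.8%), 3641 to 4491 with 1 array left out and 6130 with the block. Counts over all tested genes at 48 h under the other settings are not given here. The cause of these shifts was not tested. Direction was compared for the 32 synthetases and Kbr against control at 24 and 48 h, and there no called gene changed direction in any alternative run. With 3 arrays per group, calls near the threshold rest on single arrays, such as VARS2 at 24 h, FARSA and IARS1 at 48 h and the HARS1 fall in control cells. The calls of single genes with time in Kbr cells (adjusted p of 0.0325 to 0.0492) were not followed with 1 array left out. Changes of weak probe sets are limited by the background floor.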
